A study of Mus musculus with 4 samples.

Results

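Intermediate progenitor cells (IPCs) with few or no transcripts of the division markers *Mki67* and *Top2a* at E16.5 were examined in single-nucleus RNA-sequencing of the mouse medial neocortex. Nuclei with 1500 to 60000 transcripts were retained, and a non-cycling IPC was defined as a retained nucleus with at least 3 *Eomes* transcripts, at most 1 transcript of *Mki67* and *Top2a* together, and 0 transcripts of *Gad1*, *Gad2* and *Trp73*. Of 29656 retained nuclei, 1373 met these criteria, which was 4.63%. The genes named here chose the nuclei, so the levels of these genes are given as a description only. The same holds for every comparison of the non-cycling IPCs with other nuclei, because the nuclei were sorted by transcripts measured in the same libraries. No test was run on those comparisons.

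IPCs arise from radial glial cells (RGCs), which line the cerebral ventricle, and settle in the subventricular zone, where they divide to produce excitatory neurons. They switch on *Eomes*, a T-box transcription factor also known as TBR2, while the RGC factor PAX6 declines and the neuronal factor NEUROD1 appears. *Neurog2* encodes a proneural transcription factor that drives this step, *Sstr2* encodes a receptor for the neuropeptide somatostatin, and *Smoc1* encodes a secreted matrix protein. *Mki67* and *Top2a* mark dividing cells, *Gad1* and *Gad2* mark inhibitory neurons, and *Trp73* marks Cajal-Retzius cells, early cortical neurons that can also carry *Eomes*.

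The study asked whether loss of *Dnmt1*, the maintenance DNA methyltransferase, from somatostatin interneurons changes other cells of the developing cortex. Dnmt1 KO embryos carried *Sst*-Cre, the tdTomato reporter and a loxP-flanked *Dnmt1* allele (Sst-Cre/tdTomato/Dnmt1 loxP2), and control embryos carried *Sst*-Cre and tdTomato (Sst-Cre/tdTomato). All embryos were E16.5 on a C57BL/6J background, with 2 libraries per genotype from separate brains. *Sst*-Cre recombines in *Sst*-expressing interneurons, so the *Dnmt1* gene of the IPCs themselves was not the target.

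Retained nuclei numbered 5640 for Dnmt1 KO replicate 1, 12064 for Dnmt1 KO replicate 2, 7047 for control replicate 1 and 4905 for control replicate 2. In this order of libraries, the median number of transcripts per retained nucleus was 12274, 12384, 12401 and 21140. Control replicate 2 carries the label of batch 2 and the others that of batch 1, and it stood apart in depth, with 2.54 reads behind each transcript, where the remaining 3 libraries had 1.64 to 1.65. Replicate number also coincided with sex, because *Xist*, the RNA that silences an X chromosome in females, stood in the non-cycling IPCs at 1485 (Dnmt1 KO) and 1297 CPM (control) for replicate 1 and at 2.96 and 0 CPM for replicate 2. No retained barcode was shared between libraries, and 0 retained nuclei exceeded 10% mitochondrial reads. Levels are in CPM, counts of a gene scaled by all transcripts summed over the nuclei of a population in 1 library, and library values are given in the order Dnmt1 KO replicates 1 and 2, then control replicates 1 and 2.

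The rule kept 378 and 384 non-cycling IPCs in Dnmt1 KO and 287 and 324 in control. They came from 1959 nuclei with at least 3 *Eomes* transcripts, of which 451 were removed for *Mki67* or *Top2a*, 103 for *Gad1* or *Gad2* and 32 for *Trp73*. Of the non-cycling IPCs, 223 held a single *Mki67* or *Top2a* transcript. Scrublet, which scores nuclei against simulated doublets, marked 1.85% and 8.07% of the non-cycling IPCs in Dnmt1 KO and 3.83% and 11.1% in control, 85 in all. They were kept, and results without them are given with the processing alternatives. The median transcripts per non-cycling IPC were 10570, 9814.5, 10450 and 15329, below the median of the other retained nuclei in each of the 4 libraries (12457, 12528, 12548 and 21587).

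*Eomes* (chr9:118307280-118315200, plus strand, GRCm39) had a median of 4 transcripts per non-cycling IPC in both Dnmt1 KO libraries, 5 in control replicate 1 and 6 in control replicate 2. The highest single nucleus held 13, 20, 18 and 32 transcripts. The threshold of 3 was met exactly by 29.1%, 32.0%, 30.0% and 15.1% of the non-cycling IPCs, and the deepest library thus had the fewest nuclei at the edge. A further 173, 204, 121 and 48 nuclei held 2 *Eomes* transcripts and met every other criterion. *Neurog2* was at 42.4, 36.7, 43.1 and 23.9 CPM just inside the threshold and at 37.5, 29.2, 30.7 and 19.0 CPM just outside it. For *Smoc1*, the levels were 157, 252, 239 and 103 CPM inside and 140, 138, 167 and 91.4 CPM outside. Both genes were thus lower just outside the threshold in every library, while *Sstr2* was lower outside in the Dnmt1 KO libraries (61.9 and 44.0 against 49.3 and 35.9 CPM) and higher outside in the controls (41.0 and 54.3 against 47.0 and 67.6 CPM).

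The other 3 markers of the cell type were abundant in the non-cycling IPCs of every library. *Neurog2* (chr3:127426448-127429280, plus strand) was at 58.8, 49.2, 64.2 and 47.5 CPM, against 8.36, 4.61, 6.15 and 4.87 CPM in all other retained nuclei. *Smoc1* (chr12:81073554-81233188, plus strand) was at 196, 273, 350 and 221 CPM, against 34.8, 45.6, 56.4 and 36.0 CPM. *Sstr2* (chr11:113510145-113516862, plus strand) was at 64.1, 45.0, 49.6 and 60.7 CPM, against 10.9, 7.98, 14.8 and 11.0 CPM. Each of these genes was higher in the non-cycling IPCs of all 4 libraries than in the other nuclei of any library. These markers name the population, which was chosen with earlier results of these data known. Their levels are thus a description and no test of the label.

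Transcripts of the other somatostatin receptors were near zero. *Sstr1* and *Sstr3* did not exceed 1.62 CPM in the non-cycling IPCs of any library, and *Sstr4* and *Sstr5* had 0 transcripts. The ligand gene *Sst* was at 0, 0.211, 0.304 and 0 CPM. The *Gad1* and *Gad2* criterion removed nuclei with interneuron transcripts, so a low *Sst* level was favoured by the rule. *Dnmt1* was present in the IPCs of both genotypes, with 42.6 and 30.0 CPM in the Dnmt1 KO libraries, and 38.3 and 45.4 CPM in the control libraries.

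To compare shares of nuclei across libraries of unequal depth, each nucleus was thinned at random to 5000 transcripts, which left out 8, 11, 9 and 1 non-cycling IPCs that were shallower. At this depth *Sstr2* was found in 25.4%, 21.2%, 19.8% and 28.8% of the non-cycling IPCs, compared with 1.65%, 1.71%, 1.15% and 1.67% of the non-cycling RGCs defined below. Before thinning it was found in 45.9%, 38.1%, 38.8% and 56.0%. *Neurog2* was found after thinning in 25.7%, 24.7%, 29.5% and 22.6%, and *Smoc1* in 30.5%, 43.7%, 45.3% and 33.7%. The *Sstr2* share in IPCs was above that in RGCs in each library. The RGCs were chosen with 0 *Eomes* transcripts, so their share is no measure of free RNA, whose part was not tested. Newborn neurons held *Sstr2* in 11.0%, 11.5%, 14.5% and 11.5%, between the RGC and the IPC shares. *Neurog2* was found in 2.75%, 2.87%, 0% and 1.15% of the newborn neurons and *Smoc1* in 0.917%, 4.02%, 8.70% and 3.45%, below the shares in non-cycling IPCs of every library. Cycling IPCs held *Smoc1* in 34.3%, 50%, 51% and 49.0%, above the non-cycling share of each library, *Neurog2* in 28.4%, 18.9%, 26% and 26.5%, and *Sstr2* in 17.9%, 7.78%, 21% and 24.5%. For *Sstr2* this was below the non-cycling share in 3 libraries and above it in control replicate 1. The RGCs held *Neurog2* in 10.7%, 5.13%, 4.6% and 6.67%, also below the IPCs, but *Smoc1* in 23.1%, 42.7%, 43.7% and 45.0%, which was close to the share in IPCs in Dnmt1 KO replicate 2 and control replicate 1 and above it in control replicate 2.

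The genes that stood highest in non-cycling IPCs relative to all other retained nuclei were then listed. The fold was computed per library as (CPM + 5) over (CPM + 5), and the 20 genes with the highest lowest fold over the libraries were taken, leaving out the genes of the rule. The list was led by the long noncoding RNA *Gm31819* (6.24- to 8.74-fold over the libraries), by *Kif26b*, a kinesin-family gene (5.41- to 10.4-fold), and by *Smoc1* (5.05- to 5.78-fold). *Rhbdl3*, a rhomboid-like membrane protein gene, followed at 5.05- to 9.26-fold. *Mfng*, which encodes a fringe enzyme that modifies Notch receptors, was at 4.90- to 6.65-fold. The list also included *Megf11* (4.83- to 8.74-fold), the laminin chain *Lama2* (4.79- to 12.2-fold), the heparan sulfate sulfotransferase *Hs3st1*, the uronyl sulfotransferase *Ust* and the microfibril-associated *Mfap4*. Further genes on it were the chromatin remodeller *Chd7* (4.29- to 5.60-fold), the zinc-finger factor *Myt1* (4.01- to 4.51-fold) and *Rbfox3*, the gene of the neuronal protein NeuN (3.63- to 4.49-fold). *Neurog2* itself was at 4.77- to 6.21-fold, and *Plcxd2*, *Abcd2*, *Rftn2*, *Btbd17*, *Thrb* and *Phldb2* completed the list.

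The 10 genes that stood lowest against the other nuclei were *Erbb4*, *Nxph1*, *Grik1*, *Dlx6os1*, *Neto1*, *Adarb2*, *C130073E24Rik*, *Galntl6*, *Cntnap5c* and *Nr3c2*. *Erbb4*, the neuregulin receptor gene of interneurons, and *Dlx6os1* belong to the inhibitory lineage that the *Gad1* and *Gad2* criterion removed. Of 6138 genes averaging at least 20 CPM, 54.6% were higher and 25.6% lower than in the other nuclei in all 4 libraries, so most genes stood apart in this comparison.

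As references, 3 neighbouring populations were set beside the non-cycling IPCs, each chosen by transcripts per nucleus. Cycling IPCs met the same rule with at least 2 *Mki67* or *Top2a* transcripts (68, 94, 100 and 99 nuclei). Non-cycling RGCs had 0 *Eomes* transcripts and at least 3 each of *Pax6* and *Slc1a3*, with the same limits on *Mki67*, *Top2a*, *Gad1*, *Gad2* and *Trp73* (121, 120, 88 and 60 nuclei). Newborn neurons had 0 *Eomes* and *Pax6* transcripts and at least 3 of *Neurod1* under the same limits (109, 176, 69 and 87 nuclei). Levels in each are descriptions, since the populations were chosen from these counts. The name newborn neurons stands for this rule only, and the age and region of these nuclei were not tested. In them, 6 hippocampal lineage genes, *Zbtb20* among them, summed to 9007, 8595, 4854 and 6811 CPM. All other retained nuclei had 3016, 2303, 1659 and 1482 CPM.

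**Figure D1:**
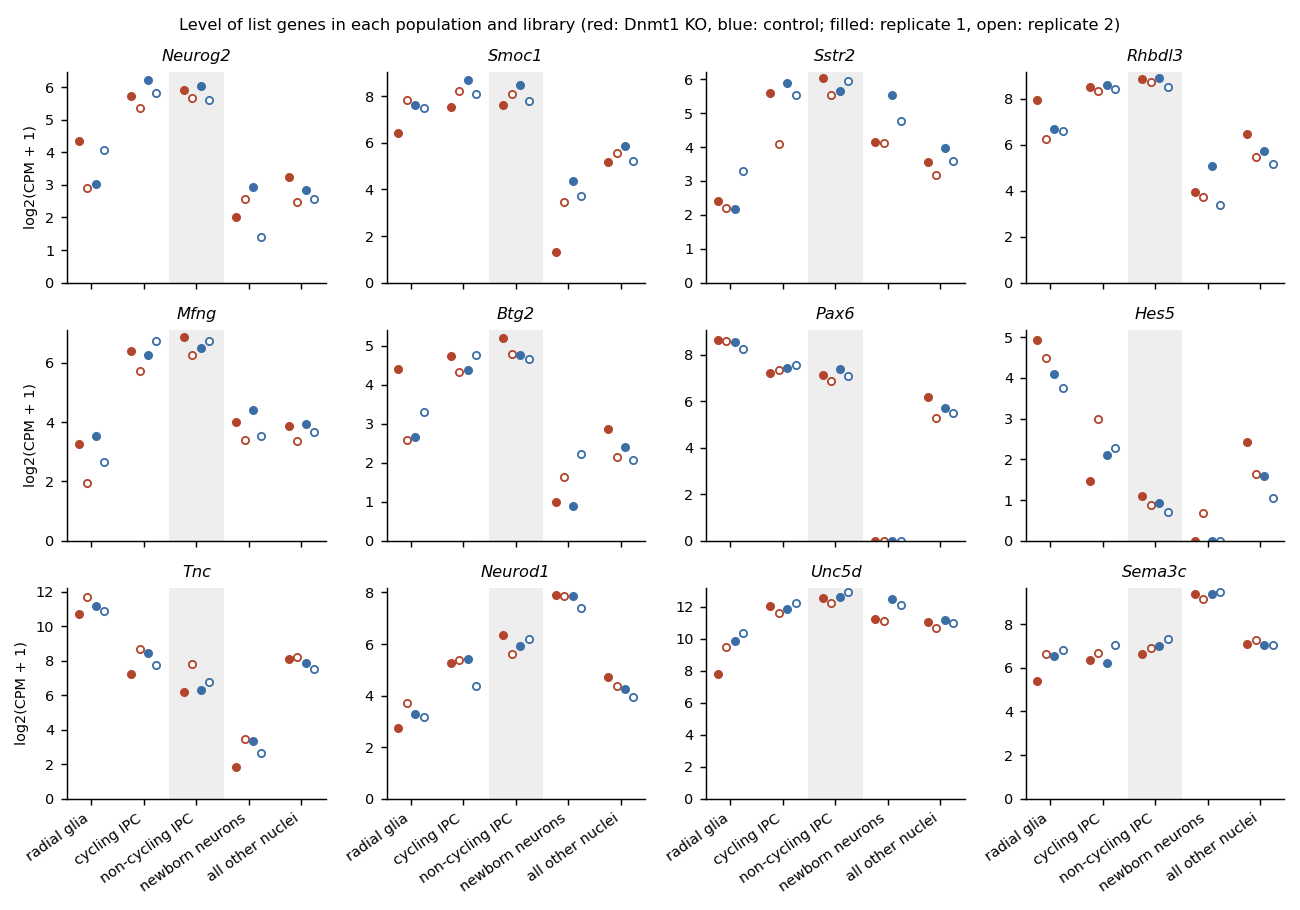
Levels of 12 genes in 5 populations of nuclei, each panel with log2(CPM + 1) on the vertical axis and the populations on the horizontal axis. Points are libraries (red Dnmt1 KO, blue control, filled replicate 1, open replicate 2) and the grey band marks non-cycling IPCs. *Neurog2*, *Smoc1* and *Rhbdl3* were higher in both IPC populations than in newborn neurons, *Tnc* and *Hes5* were highest in RGCs, and *Neurod1* and *Sema3c* were highest in newborn neurons.

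Non-cycling and cycling IPCs had similar levels of the IPC markers. *Neurog2* was at 51.7, 40.1, 73.6 and 55.9 CPM and *Smoc1* at 185, 296, 405 and 272 CPM in cycling IPCs. Against the non-cycling values above, *Neurog2* was higher in the cycling nuclei of both controls and lower in those of both Dnmt1 KO libraries. *Rhbdl3* was at 464, 417, 473 and 368 CPM in non-cycling and 369, 326, 387 and 338 CPM in cycling IPCs, and was thus higher in the non-cycling IPCs of each library. *Sstr2* was at 47.2, 15.9, 57.9 and 45.6 CPM in cycling IPCs, below the non-cycling level in 3 of 4 libraries.

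The IPC populations differed in the division programme and in the balance of RGC and neuronal genes, among other genes. Of 6334 genes averaging at least 20 CPM, 18.3% were higher and 28.8% lower in non-cycling than in cycling IPCs in all 4 libraries. The cycling IPCs were chosen by *Mki67* and *Top2a*, and the list of 10 other G2 and M phase genes summed to 18.8 to 45.3 CPM over the libraries against 1112 to 1950 CPM. For the S phase list, the sum was 85.0 to 92.5 CPM against 256 to 318 CPM, so transcripts of replication genes that the rule did not read were also lower. The S phase sum was nevertheless above the 31.2 to 38.7 CPM of the newborn neurons. *Ccnd2*, a cyclin of early G1, was at 106, 91.7, 118 and 105 CPM against 152, 168, 187 and 245 CPM. It belongs to a list of 6 cell-cycle exit genes, of which 0 were higher, 2 lower and 4 mixed over the libraries. *Dnmt1*, itself a gene of replicating cells, was at 106, 80.1, 91.4 and 97.2 CPM in cycling IPCs, above the non-cycling level in each library.

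The 15 genes of the RGC list summed to 714, 1300, 1027 and 1143 CPM in non-cycling and to 1158, 2157, 1793 and 1903 CPM in cycling IPCs. The 11 genes of the newborn neuron list summed to 7978, 6515, 8368 and 9917 CPM against 5621, 4396, 5223 and 6460 CPM, mostly *Unc5d*. *Unc5d*, a netrin receptor gene of newborn upper-layer neurons (chr8:29136745-29709664, minus strand, overlapping *Svet1* on the same strand), was at 6075, 4859, 6440 and 7814 CPM against 4238, 3153, 3799 and 4914 CPM in cycling IPCs. As given below, *Unc5d* was lower in newborn neurons than in the non-cycling IPCs of each library. The list sum is thus not a measure of neuronal content alone. *Neurod1* was at 80.7, 48.1, 60.0 and 72.9 CPM against 37.4, 40.7, 42.1 and 19.8 CPM. Both genes were thus higher in non-cycling IPCs of each library, while the median fold over all genes at this level was 0.972.

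Other genes that stood higher in non-cycling IPCs were led by 2 genes of secreted proteins. *Rspo2*, an R-spondin that strengthens Wnt signalling, was at 40.3, 81.9, 30.1 and 49.1 CPM against 1.78, 6.36, 0.657 and 0 CPM in cycling IPCs. *Reln*, the gene of the secreted protein reelin, was at 287, 306, 230 and 92.1 CPM against 64.2, 29.9, 18.4 and 24.1 CPM. *Cacna2d3*, a calcium channel subunit gene, and *Stxbp5l* stood 2.85- to 4.05-fold and 2.69- to 4.28-fold higher. *Kif4*, *Neil3*, *Cenpe* and *Diaph3*, genes of mitosis, DNA repair and the cytoskeleton, were among the lowest. *Reln* is also the chief product of Cajal-Retzius cells, and all other retained nuclei held it at 827, 604, 447 and 513 CPM. Of the other Cajal-Retzius markers, *Ebf3* was at 29.8, 41.0, 43.5 and 23.4 CPM in the non-cycling IPCs, above the 25.5, 23.4, 17.8 and 14.0 CPM of all other nuclei, and *Lhx1* did not exceed 0.463 CPM. The part of free RNA or of Cajal-Retzius cells in the *Reln* level was not tested.

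Against non-cycling RGCs, the non-cycling IPCs held little of the glial programme. Of 6452 genes averaging at least 20 CPM, 28.2% were higher and 31.9% lower in all 4 libraries. The RGC list, which holds the genes that chose the RGCs, summed to 5621, 9451, 7881 and 7071 CPM in them, above the IPC sums of every library. *Tnc*, the gene of the matrix protein tenascin C, was at 71.5, 220, 79.1 and 108 CPM against 1679, 3348, 2336 and 1839 CPM. *Pax6*, which the RGC rule read, was at 137, 117, 164 and 134 CPM against 394, 378, 375 and 302 CPM. *Hes5*, a Notch target that holds RGCs undifferentiated, was at 1.16, 0.845, 0.913 and 0.638 CPM against 29.5, 21.5, 16.0 and 12.4 CPM. *Notch2*, a receptor gene, stood 9.05- to 13.2-fold lower in the IPCs, and *Ddah1* was also among the leading lower genes.

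Genes that stood higher than in RGCs included several of IPCs and of early neurons. The 9 IPC surface and secreted genes summed to 961, 903, 1054 and 845 CPM in non-cycling IPCs and to 374, 321, 324 and 312 CPM in RGCs, where the newborn neuron list was at 528, 1285, 1430 and 2423 CPM. *Kif26b* was at 2099, 1348, 1866 and 1788 CPM against 63.3, 60.1, 54.1 and 68.3 CPM. *Mfng* was at 115, 76.4, 89.2 and 105 CPM against 8.63, 2.86, 10.6 and 5.32 CPM. *Sstr2* was at 4.31, 3.58, 3.55 and 8.87 CPM in RGCs, below every IPC library. *Myt1* stood 12.4- to 19.9-fold higher and *Unc5d* 5.89- to 26.5-fold higher, and *Trpc4*, *Igsf21*, *Lrrn3*, *Rbfox3*, *Scrt2*, *Elavl2* and *Slc17a6*, the vesicular glutamate transporter gene of excitatory neurons, were also among the leading genes.

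Against newborn neurons, the non-cycling IPCs stood higher for many genes, those of the Notch list among them. Of 5985 genes averaging at least 20 CPM, 51.3% were higher and 21.5% lower in all 4 libraries. The 14 genes of the Notch list summed to 945, 887, 910 and 814 CPM against 361, 350, 349 and 341 CPM, with the receptor gene *Notch1* at 9.08- to 13.7-fold. Of the 6 Notch list genes averaging at least 20 CPM, 6 were higher in all 4 libraries. *Gli3*, a transcription factor of Hedgehog signalling, stood 8.49- to 14.9-fold higher and *Sox6*, an SRY-box factor, 7.92- to 26.1-fold higher. *Smoc1* stood 13.1- to 30.9-fold and *Rhbdl3* 12.7- to 25.9-fold higher, and these led the list after *Pax6*, which the newborn neuron rule had set to 0. For *Sstr2*, the newborn neurons were at 16.6, 16.4, 45.4 and 26.5 CPM, below the non-cycling IPCs of the same library in each case.

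The 6 neurexin and neuroligin genes, which encode synaptic adhesion proteins, summed to 3147, 5686, 3973 and 4941 CPM in the IPCs, below the 10395, 12020, 7655 and 9477 CPM of newborn neurons. *Sema3c*, a secreted semaphorin gene, was at 97.2, 121, 128 and 157 CPM against 674, 564, 659 and 699 CPM. *Neurod1*, which the newborn neuron rule read, was at 240, 231, 234 and 166 CPM in newborn neurons. *Cpne4*, a copine gene, stood 16.9- to 38.7-fold lower, and *Slit3*, an axon guidance ligand gene, 13.4- to 34.0-fold lower. *Unc5d*, of the newborn neuron list, was at 2460, 2265, 5683 and 4411 CPM in newborn neurons, and among these 4 populations its level was highest in the non-cycling IPCs of each library.

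The non-cycling IPCs were not uniform in the detection of the RGC gene *Pax6* and the neuronal gene *Neurod1*. After thinning, 35.9%, 36.7%, 38.1% and 33.7% held *Pax6* without *Neurod1*, 11.9%, 10.2%, 12.9% and 13.3% held *Neurod1* without *Pax6*, 10.0%, 6.70%, 9.71% and 12.4% held both, and 42.2%, 46.4%, 39.2% and 40.6% held neither. The 4 libraries thus divided alike into these classes. *Neurod1* was found in 21.8%, 15.4%, 20.3% and 26.8% of the nuclei with *Pax6* and in 22.0%, 18.0%, 24.8% and 24.7% of those without, lower with *Pax6* in 3 libraries and higher in control replicate 2.

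**Figure D2:**
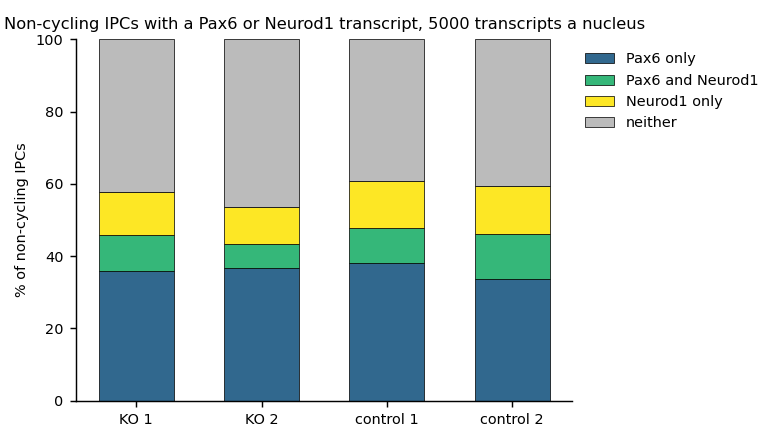
Non-cycling IPCs of each library by the detection of *Pax6* and *Neurod1* after thinning to 5000 transcripts, with the percentage of nuclei on the vertical axis and libraries on the horizontal axis. Nuclei with *Pax6* only made up 33.7% to 38.1% and nuclei with *Neurod1* only 10.2% to 13.3% of each library.

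The *Pax6*-only and *Neurod1*-only IPCs were then compared for the remaining genes, as a description. *Smoc1* was at 260, 412, 613 and 420 CPM in *Pax6*-only nuclei and at 29.0, 43.5, 121 and 46.1 CPM in *Neurod1*-only nuclei. *Neurog2* was at 79.3, 60.0, 96.3 and 78.5 CPM against 25.3, 30.3, 27.1 and 16.9 CPM. *Rhbdl3* was at 565, 541, 691 and 648 CPM against 255, 168, 281 and 126 CPM. These 3 IPC genes were thus concentrated in the *Pax6*-only nuclei of each library, together with *Notch1* (132, 169, 204 and 186 against 56.1, 62.4, 51.7 and 60.7 CPM).

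The *Neurod1*-only IPCs carried more neuronal transcripts. *Unc5d* was at 8991, 7672, 9185 and 11662 CPM in these nuclei and at 4809, 4116, 3917 and 5191 CPM in *Pax6*-only nuclei. *Sema3c* was at 225, 250, 140 and 191 CPM against 48.0, 92.2, 63.0 and 79.1 CPM, and *Slc17a6* at 751, 376, 497 and 547 CPM against 391, 198, 222 and 221 CPM. *Dcx*, the gene of the microtubule protein of migrating neurons, was at 1128, 908, 1044 and 891 CPM against 670, 563, 528 and 537 CPM. *Epha3*, an axon guidance receptor gene, was at 2942, 2559, 3009 and 3507 CPM against 1615, 2150, 2255 and 1786 CPM. Each of these genes was higher in the *Neurod1*-only nuclei of all 4 libraries.

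*Sstr2* differed from the other markers in this respect. Its level was 64.0, 44.8, 44.1 and 56.2 CPM in *Pax6*-only and 72.4, 47.3, 56.6 and 61.9 CPM in *Neurod1*-only IPCs. The somatostatin receptor transcript was thus not concentrated in the *Pax6*-only nuclei, unlike *Neurog2* and *Smoc1*. It was slightly higher in the *Neurod1*-only nuclei of each library, but these were only 44, 38, 36 and 43 nuclei. This small difference was not tested.

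The levels also differed with the amount of *Eomes*. These levels are CPM of nuclei thinned to 5000 transcripts. With nuclei grouped by 3 to 4, 5 to 7, and 8 or more *Eomes* transcripts, *Smoc1* was at 201, 246 and 426 CPM in Dnmt1 KO replicate 1 and at 287, 357 and 523 CPM in Dnmt1 KO replicate 2. In the controls it was at 334, 421 and 660 CPM and at 135, 210 and 364 CPM. *Smoc1* was higher in each next group of nuclei in every library. *Unc5d* ran the other way, at 7236, 4925 and 4719 CPM, at 5577, 5272 and 4323 CPM, at 7693, 6089 and 3706 CPM and at 11205, 9100 and 6700 CPM in the same order of libraries. *Neurog2* was higher in the group with the most *Eomes* than in the group with the least in all 4 libraries (111 against 48.7, 86.4 against 56.9, 125 against 56.5 and 72.9 against 24.1 CPM). These groups were set by raw counts, so nuclei with more transcripts in all were more likely to fall in the highest one.

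The non-cycling IPCs also held a subset with *Prox1*, the homeobox gene of dentate granule neurons of the hippocampus. This split was made after its values were seen. *Prox1* (chr1:189850232-189904637, minus strand, overlapping *Prox1os* on the other strand) was found in 148, 141, 72 and 106 non-cycling IPCs, which was 39.2%, 36.7%, 25.1% and 32.7% of them. After thinning the shares were 28.9%, 27.6%, 14.7% and 17.6%, higher in both Dnmt1 KO libraries than in both controls. The split also followed depth, with medians of 12086, 11044, 12116 and 16632.5 transcripts in *Prox1*-positive and 9576, 9169, 9846 and 15223 in *Prox1*-negative nuclei.

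**Figure D3:**
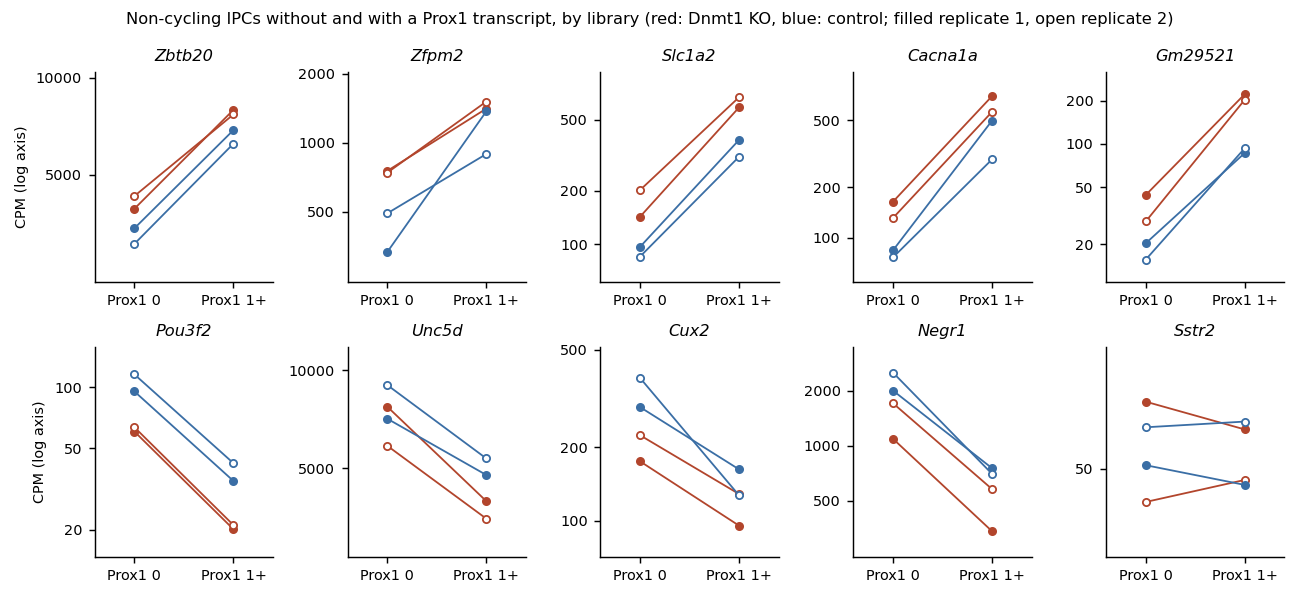
Levels of 10 genes in non-cycling IPCs with 0 *Prox1* transcripts and with at least 1, with CPM on a logarithmic vertical axis and 1 point per library (red Dnmt1 KO, blue control). *Zbtb20*, *Zfpm2*, *Slc1a2*, *Cacna1a* and *Gm29521* were higher and *Pou3f2*, *Unc5d*, *Cux2* and *Negr1* lower in *Prox1*-positive nuclei of each library, while *Sstr2* was at 0.891- to 1.09-fold.

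Of the 5 other genes of the hippocampal lineage list, 4 were higher and 0 lower in the *Prox1*-positive IPCs of all 4 libraries, with *Dmrta2* at 0.946- to 1.10-fold. Of 6103 genes averaging at least 20 CPM, 13.8% were higher and 12.7% lower in all 4. *Zbtb20*, a zinc-finger gene required for hippocampal identity, was at 7960, 7703, 6887 and 6251 CPM in *Prox1*-positive and at 3925, 4298, 3413 and 3053 CPM in *Prox1*-negative IPCs. *Lef1*, a nuclear effector gene of Wnt signalling, was at 346, 188, 220 and 177 CPM against 142, 62.1, 50.4 and 38.2 CPM. Genes outside the list that stood highest in the split were *Adamts19*, *Ntn1*, *E330013P04Rik*, *Stxbp5l*, *Cacna1a*, *Gm29521*, *Zic1*, *Tgfbr3*, *Slc1a2* and *Tmem132c*. *Slc1a2*, the astroglial glutamate transporter gene, was at 586, 669, 385 and 310 CPM against 143, 201, 96.5 and 85.1 CPM. *Zic1*, a zinc-finger gene of the medial brain wall, stood 3.47- to 6.16-fold and *Ntn1*, the guidance cue netrin-1, 5.01- to 20.7-fold higher. *Reln* was likewise higher, at 506, 452, 678 and 214 CPM against 117, 199, 55.0 and 32.7 CPM.

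Of the 8 genes of the upper-layer list, 6 were lower and 0 higher in the *Prox1*-positive IPCs of all 4 libraries, with *Lhx2* at 0.836- to 1.12-fold. *Pou3f2*, the gene of the POU factor BRN2, was at 60.6, 63.5, 95.3 and 115 CPM in *Prox1*-negative and at 20.1, 21.0, 34.6 and 42.3 CPM in *Prox1*-positive IPCs. *Cux2*, a homeobox gene of upper layers, was at 175, 224, 292 and 384 CPM against 95.5, 129, 162 and 127 CPM. *Unc5d* was lower in the *Prox1*-positive nuclei at 0.512- to 0.671-fold. Of the IPC state genes, *Pax6* was at 0.929- to 1.38-fold, *Neurod1* at 0.968- to 1.17-fold and *Sstr2* at 0.891- to 1.09-fold. *Smoc1* was lower in 3 of 4 libraries, down to 0.588-fold, and higher in control replicate 2 (256 against 203 CPM), and *Neurog2* was at 1.13- to 1.54-fold, higher in all 4.

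The first comparison between genotypes was the abundance of non-cycling IPCs. They made up 6.70% (exact 95% binomial interval 6.06% to 7.39%) and 3.18% (2.88% to 3.51%) of retained nuclei of the Dnmt1 KO libraries, and 4.07% (3.62% to 4.56%) and 6.61% (5.93% to 7.34%) of those of the control libraries. The genotypes overlapped, and replicates of 1 genotype differed by more than the genotypes did. Dnmt1 KO averaged 4.94% ± 2.49 and control 5.34% ± 1.79 (SD, n = 2 each), and the 2-sided exact permutation test gave p = 1. Within batch 1, without control replicate 2, the difference of means turned to 0.87 percentage points. After thinning, which set the same number of transcripts per nucleus while reads per transcript still differed, and with the rule applied anew to the thinned counts, the shares were 2.89%, 1.49%, 2.21% and 2.89%. The intervals cover counting error only, and a share of all nuclei depends on the numbers of the other nuclei as well.

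The second question was how many IPCs fell within the limit of 1 *Mki67* or *Top2a* transcript. This limit does not read S phase genes, so the share is not a measure of IPCs outside division. Of all IPCs, 84.8% (81.1% to 88.0%) and 80.3% (76.5% to 83.8%) were non-cycling in Dnmt1 KO, against 74.2% (69.5% to 78.5%) and 76.6% (72.3% to 80.6%) in control. Both Dnmt1 KO libraries were above both control libraries, with means of 82.5% ± 3.12 and 75.4% ± 1.72 (SD, n = 2 each). The 2-sided exact permutation test gave p = 0.333, the smallest value that 2 libraries against 2 allow, so the design could not reach 0.05. Within batch 1 the difference of means was 8.38 percentage points, against 7.17 over all libraries. With the rule applied anew to thinned counts, 166, 192, 161 and 146 IPCs remained, and the limit of 1 *Mki67* or *Top2a* transcript was then less strict. Of these, 90.4%, 89.1%, 88.2% and 91.8% were non-cycling, the genotypes overlapped, and the difference of means turned to −0.278 percentage points.

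**Figure D4:**
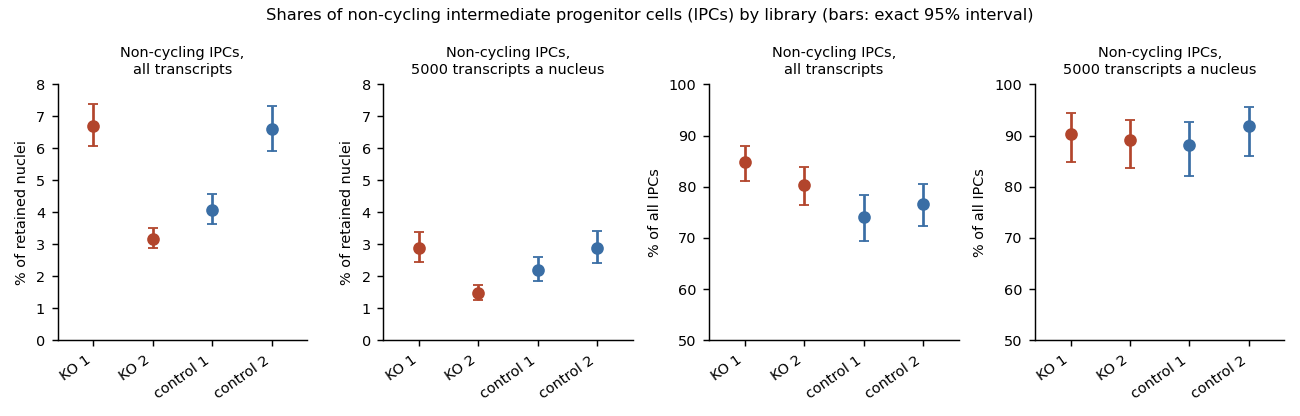
Non-cycling IPCs as a percentage of all retained nuclei and of all IPCs, with every transcript and with the rule applied anew after thinning each nucleus to 5000, per library with exact 95% binomial intervals. The share of all IPCs was higher in both Dnmt1 KO libraries with every transcript (80.3% and 84.8% against 74.2% and 76.6%) and overlapped after thinning.

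The third was the balance of neuronal and RGC transcripts within the non-cycling IPCs. Of transcripts on the newborn neuron list and the RGC list together, the neuron list held 91.8%, 83.4%, 89.1% and 89.7%. Dnmt1 KO replicate 2 was low and Dnmt1 KO replicate 1 high, with both controls between them. *Unc5d* made up most of the neuron list, with 6075, 4859, 6440 and 7814 of its summed CPM. Since *Unc5d* was higher in the non-cycling IPCs than in newborn neurons as defined here, the share is not a measure of neuronal content alone. For the share, the exact permutation test gave p = 1. The non-cycling IPCs were 75.8% and 76.2% of non-cycling IPCs plus non-cycling RGCs in Dnmt1 KO and 76.5% and 84.4% in control, a comparison added after the data were seen.

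Expression in the non-cycling IPCs was compared between genotypes on transcripts summed per library, with edgeR's quasi-likelihood test over 12245 genes. No gene passed an adjusted p of 0.05, which is 0% of genes tested in either direction, and the smallest Benjamini-Hochberg adjusted p was 0.544. At an unadjusted p under 0.05, 343 genes (2.8%) were higher and 341 (2.78%) lower in Dnmt1 KO. Both Dnmt1 KO libraries were above both controls for 1925 genes (15.7%) and below for 2596 (21.2%). These p-values set the genotype difference against the spread between the 2 libraries of each genotype. Those libraries also differed in sex by *Xist*, and the controls in batch and depth, and the fit held no term for these. DESeq2, run as an alternative on the same counts, called 21 genes higher (0.111% of 18888) and 2 lower (0.0106%). Within batch 1, with 1 control library, the log2 fold change was 1.14 for *Prox1*, 0.41 for *Zbtb20* and −0.80 for *Pou3f2*. Over all libraries, these were 1.09, 0.45 and −0.92. In summed counts, a change in the mix of nuclei and a change of RNA per nucleus cannot be told apart.

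The IPC markers had small fold changes between genotypes, none past the test. *Sstr2* had a log2 fold change (Dnmt1 KO over control) of −0.0026 ± 0.22 (SE), and its levels overlapped between the genotypes. *Neurog2* was at −0.021 and *Rhbdl3* at 0.088. *Smoc1*, at −0.26 ± 0.27 (SE), varied as much within each genotype as between them. *Dnmt1* was at −0.19 ± 0.22 (SE), with an adjusted p of 0.917. Of the IPC transcription factor list, 7 of 8 genes were tested, 1 was higher and 0 lower without overlap, and the median log2 fold change was −0.021 against −0.0097 for all genes. Of 8 tested IPC surface and secreted genes, 2 were higher and 1 lower without overlap, and 0 were called. These counts of both lists are to be read against 15.7% of all genes higher and 21.2% lower without overlap. *Mfap4* was higher in Dnmt1 KO at a log2 fold change of 0.80 and *Cxcl12*, a chemokine gene, lower at −1.18, and neither passed adjustment. With 1 library left out, *Mfap4* ran from 0.52 (without Dnmt1 KO replicate 1) to 1.04, and *Cxcl12* from −1.50 to −0.71 (without control replicate 2).

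The genes closest to a call are given next, and none of them passed the edgeR test. *Prox1* reached 123 and 119 CPM with the *Dnmt1* deletion in interneurons, where the controls had 55.7 and 59.0 CPM, a log2 fold change of 1.09 ± 0.12 (SE) with an adjusted p of 0.544. The long noncoding RNA *Gm29521* (chr9:101647568-101739929, minus strand) was at 122 and 102 CPM against 39.0 and 41.1 CPM (1.51 ± 0.15). *Slc1a2* had 337 and 398 CPM in Dnmt1 KO, with 178 and 159 CPM in control (1.15 ± 0.15). The collagen gene *Col5a2* was at 70.3 and 61.5 CPM against 25.3 and 19.0 CPM (1.61 ± 0.19), and the zinc-finger gene *Zfp804b* at 68.7 and 73.1 CPM against 27.4 and 30.6 CPM (1.30 ± 0.14). These 5 genes had the smallest unadjusted p among genes higher in Dnmt1 KO, and their genotypes did not overlap. DESeq2 called all 5, with adjusted p from 0.000139 for *Gm29521* to 0.00911 for *Prox1*.

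In the other direction, *Cmss1* had 256 and 292 CPM in the Dnmt1 KO libraries, and 615 and 735 CPM in the controls (log2 fold change −1.28 ± 0.16, SE). It overlaps *Filip1l* on the opposite strand (chr16:57122363-57427253), and whether reads of *Filip1l* entered its count was not tested. *Pou3f2* (chr4:22482780-22488366, minus strand) was at 42.8 and 45.6 CPM against 78.2 and 91.5 CPM (−0.92 ± 0.15, adjusted p 0.55 by edgeR). The noncoding RNAs *Gm27008*, *E130006D01Rik* and *Gm48099* completed the 5 lowest, at 19.9 and 22.6 against 51.1 and 48.9 CPM, at 25.0 and 25.3 against 48.1 and 59.0 CPM, and at 3.24 and 2.75 against 10.3 and 15.6 CPM. Of these genes, DESeq2 called *Cmss1* alone, with an adjusted p of 0.000139, and its second call in this direction was *Gm14236* (1.62 and 0.634 against 4.26 and 26.5 CPM).

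The remaining DESeq2 calls that were higher in Dnmt1 KO are given next. *Wnt5a*, a Wnt ligand gene, was at 93.5 and 60.2 CPM against 30.4 and 28.2 CPM, and *Ror1*, which encodes a receptor for it, was at 6.71 and 46.9 against 2.13 and 1.75 CPM. *Ror1* thus rested on Dnmt1 KO replicate 2. The noncoding RNA *Rmst* had 2401 and 1793 CPM, and 961 and 761 CPM in control. *Lama4*, a laminin chain gene, was at 9.95 and 11.6 CPM against 0.913 and 0.159 CPM. *Zfpm2*, a cofactor gene of GATA factors, was at 1041 and 1066 CPM against 625 and 623 CPM and had an adjusted p of 0.036 by DESeq2 and 0.558 by edgeR. *Trhde*, *Pde1a*, *Tmem132c*, *Dlgap2*, *Cacna1a*, *Ccdc85a*, *Marchf3*, *Pcdh19*, *Sned1*, *Adamts19* and the pseudogene *Tmem181c-ps*, whose reads its gene copies may share, made up the rest. *Adamts19* (5.76- to 15.9-fold), *Cacna1a* (3.67- to 5.66-fold) and *Tmem132c* (3.24- to 9.22-fold) were also among the genes highest in *Prox1*-positive IPCs, as were *Gm29521* and *Slc1a2*. The part of the *Prox1*-positive share in these calls was not tested.

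**Figure D5:**
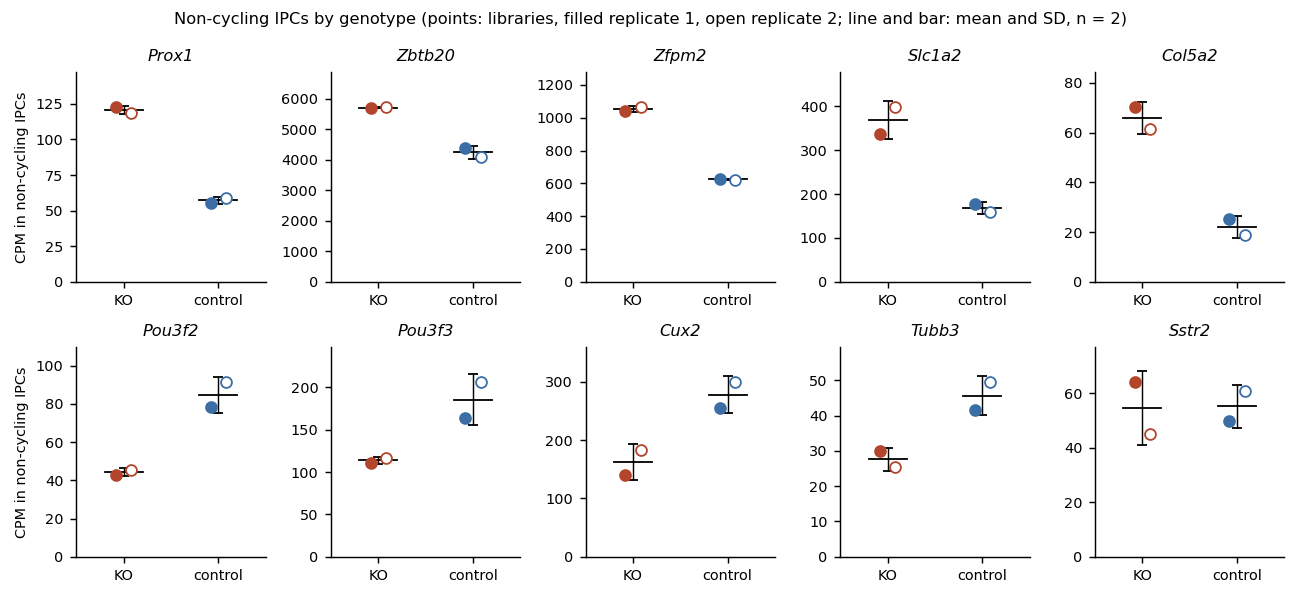
Levels of 10 genes in the non-cycling IPCs by genotype, with CPM on the vertical axis, 1 point per library and the mean with SD (n = 2). *Prox1*, *Zbtb20*, *Zfpm2*, *Slc1a2* and *Col5a2* were higher and *Pou3f2*, *Pou3f3*, *Cux2* and *Tubb3* lower in both Dnmt1 KO libraries, and *Sstr2* overlapped. None passed the edgeR test.

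The lists are given next. All 6 tested hippocampal lineage genes had a positive log2 fold change, 4 were higher without overlap, and the median was 0.77. *Zbtb20* was at 5694 and 5734 CPM against 4390 and 4101 CPM (0.45), *Lef1* at 231 and 115 CPM against 98.0 and 83.7 CPM (0.95, and 0.36 to 1.38 with 1 library left out, the lowest without Dnmt1 KO replicate 1), and the Wnt ligand gene *Wnt8b* at 12.5 and 8.87 CPM against 3.65 and 4.62 CPM (1.35). For the upper-layer list, 0 of 8 genes were positive, 5 were lower without overlap, and the median was −0.50. *Pou3f3* was at 111 and 117 CPM against 164 and 207 CPM, and *Cux2* at 140 and 184 CPM against 255 and 300 CPM. Of the 8 deep-layer genes, 4 were positive and 4 negative, 2 were higher and 3 lower without overlap, and the median was −0.065. The 6 tested G2 and M phase genes were positive, all with overlap, at a median of 0.26. The whole list of 10 summed to 39.1 and 33.6 CPM in Dnmt1 KO and to 45.3 and 18.8 CPM in control. Control replicate 1 was thus above both Dnmt1 KO libraries, and the deeper control replicate 2 below them. The sums of the hippocampal and upper-layer lists also differed outside the non-cycling IPCs. The hippocampal sum was almost all *Zbtb20*, and in all other nuclei it was higher in the Dnmt1 KO libraries (3016 and 2303 against 1659 and 1482 CPM), as it was in cycling IPCs, RGCs and newborn neurons. The upper-layer list summed to 1837 and 2471 CPM in all other nuclei with the deletion, below 2986 and 3685 CPM in control, was also lower without overlap in cycling IPCs and newborn neurons, and overlapped in RGCs. None of these genes was called by edgeR over all genes in the non-cycling IPCs, and the background of genes without overlap was 15.7% and 21.2%.

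The newborn neuron list had 1 positive and 10 negative genes with a median of −0.36, and 6 were lower without overlap. *Tubb3*, a neuronal tubulin gene, had 29.8 and 25.3 CPM in Dnmt1 KO libraries against 41.7 and 49.6 CPM in control, and *Neurod2*, a neuronal transcription factor gene, at 50.2 and 54.1 against 65.1 and 75.4 CPM. Of 10 tested Notch pathway genes, 2 were higher and 1 lower without overlap. Of 11 tested genes of Eph receptors and ephrins, 3 were higher and 5 lower without overlap, with *Ephb1* at 1133 and 831 CPM against 564 and 585 CPM and *Efnb2* at 132 and 130 CPM against 168 and 180 CPM. Of 7 DNA methylation genes, 2 were higher and 1 lower without overlap. Over all genes tested, 15.7% were higher and 21.2% lower without overlap, and in each of these lists 0 genes were called by edgeR.

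The share of *Prox1*-positive nuclei was higher in both Dnmt1 KO libraries, which restates the *Prox1* difference above. Detection of *Prox1* followed depth, so nuclei with undetected *Prox1* remain among the *Prox1*-negative IPCs. The part of the mix of nuclei in the genotype differences was not tested. When the *Prox1*-positive IPCs were left out, 10785 genes were tested, 0 were called, and 439 had an unadjusted p under 0.05. In the remaining IPCs the log2 fold change was 0.93 for *Slc1a2*, 0.86 for *Zfpm2*, 1.45 for *Col5a2*, 1.04 for *Gm29521*, −0.76 for *Pou3f2*, −0.76 for *Cux2* and −1.40 for *Cmss1*. The levels of *Zbtb20*, *Lef1* and *Wnt8b* were also higher in both Dnmt1 KO libraries among these IPCs, and those of *Dmrt3* and *Dmrta2* overlapped. *Zfp804b* was at 2.62 there, with 9.06 and 86.6 CPM in the Dnmt1 KO libraries against 8.05 and 7.59 CPM in control, and thus rested on Dnmt1 KO replicate 2. *Prox1* was also at 76.6 and 101 CPM against 32.9 and 36.1 CPM in cycling IPCs, and at 89.9 and 65.1 CPM against 33.7 and 31.9 CPM in RGCs. Newborn neurons had 56.9 and 113 CPM in Dnmt1 KO libraries, with 83.1 and 151 CPM in controls, and the genotypes overlapped there.

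Whether the genotype difference in non-cycling IPCs departed from that in a neighbouring population was tested with a genotype by population term. The term had 0 calls of 12026 genes against cycling IPCs (smallest adjusted p 0.0753, 569 genes unadjusted), 0 of 12097 against RGCs (0.218, 437 genes) and 0 of 12277 against newborn neurons (0.324, 638 genes), which is 0% each. Against cycling IPCs, the lowest p values belonged to *Adgrl4* and to *Lingo2*, a leucine-rich repeat gene at 47.7 and 144 against 51.7 and 25.2 CPM in non-cycling and 28.5 and 41.3 against 180 and 64.1 CPM in cycling IPCs. *Gm49678* and *Rgs6* led in the other direction. Against RGCs, *Cntn3* and *Synpr* led. The cadherin gene *Cdh20* led against newborn neurons, at 31.2 and 27.0 against 25.0 and 28.1 CPM in IPCs and at 357 and 175 against 21.8 and 40.0 CPM in the neurons. *Pou3f2* was lower in Dnmt1 KO in both populations, and by more in the newborn neurons, where it was at 8.55 and 12.2 against 59.6 and 64.0 CPM (term 1.55, adjusted p 0.38 by edgeR). The 3 terms share the same libraries of non-cycling IPCs.

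Markers of other cell types were then summed in the non-cycling IPCs. The 5 microglial genes summed to 4.16 to 11.6 CPM over the libraries, the 4 oligodendrocyte precursor genes to 0.463 to 3.38 CPM, and the 4 mural genes to 3.67 to 11.0 CPM with *Kcnj8* at 0. The 5 endothelial genes summed to 31.7, 9.50, 8.83 and 5.90 CPM, highest in Dnmt1 KO replicate 1. The 4 choroid plexus genes summed to 1.85, 18.6, 1.22 and 1.75 CPM and the 4 meningeal genes to 0, 8.24, 0 and 0 CPM, so both were highest in Dnmt1 KO replicate 2, whose other nuclei also held the most choroid plexus transcripts (161 CPM). The 9 interneuron genes summed to 58.3, 87.2, 56.9 and 52.6 CPM, mostly *Erbb4*. The 6 Cajal-Retzius genes summed to 333, 359, 285 and 128 CPM, mostly *Reln*, above the levels of *Neurog2* in the same nuclei. Sums of these lists that were higher in both Dnmt1 KO libraries than in both controls were those of interneurons, Cajal-Retzius cells, endothelial cells and choroid plexus, and their part in the genotype differences was not tested.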

How the data were processed

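Nuclei were profiled by split-pool barcoding (Parse Evercode) and processed by the authors in Trailmaker against mm39 (R 4.4.1 and Seurat 5.0.1.9001 are also listed in the submitters' processing notes). The authors deposited unfiltered transcript counts per gene and barcode, with a table of barcode totals. The study filters on 1500 to 60000 reads per cell; the range was applied here to transcripts, with mapped reads as an alternative. The non-cycling IPCs and the gene lists were chosen with earlier results of these data known.

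Counts were summed per population and library (Python 3.11.15, scanpy 1.11.5). Genotypes were compared with edgeR 4.0.16 (R 4.3.3), TMM scaling and its default filter on low counts, and DESeq2 1.42.0 as an alternative; SE was the fold change over the root of F. Doublets scored by Scrublet were kept. Coordinates are GRCm39. Named genes were, by rule, the 20 highest and 10 lowest against the other nuclei among genes at 20 CPM or more, the 5 of smallest p per direction where fewer passed, and members of the lists; leading genes against the neighbouring populations, DESeq2 calls, the *Prox1* split and *Arhgap6* were added after the data were seen. The fits were tested on simulated data.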

Additional observations from a re-analysis of the deposited data

How the results depend on the processing

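The genotype comparison in the non-cycling IPCs gave 0 calls by edgeR, and also 0 with RLE scaling, with at least 5 *Eomes* transcripts, with 0 *Mki67* and *Top2a* transcripts, without doublets and without *Prox1*-positive nuclei. It gave 23 calls with DESeq2, 340 without a filter on low counts and 4 after thinning (*Cmss1* lower, *Rmst*, *Tmem132c* and *Tgfbr3* higher in Dnmt1 KO). Leaving out 1 library gave 0 to 1 calls, the 1 being *Ror1* without Dnmt1 KO replicate 1. A replicate block gave 0 calls, with 710 genes at an unadjusted p under 0.05 against 684. Deviations of same-numbered libraries correlated at 0.151 over 12248 genes, which over 2 pairs was not taken to pair the libraries, although same-numbered libraries also share the sex read from *Xist*. The genotype by population terms had 144 (cycling IPCs), 107 (RGCs) and 260 (newborn neurons) calls without the filter. Leaving out 1 library gave 1 to 44, 2 to 44 and 0 to 296 calls, against 0 in each. Against cycling IPCs these were 1 without Dnmt1 KO replicate 1, 33 without Dnmt1 KO replicate 2, 44 without control replicate 1 and 7 without control replicate 2. Against newborn neurons they were 42, 296, 0 and 1, and against RGCs 18, 44, 2 and 2, in the same order. Each fit without 1 library leaves 1 library in a genotype, so the spread between libraries comes from the other genotype. The counts of those fits are a description. The causes were not tested.

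The difference in the share of retained nuclei (−0.397 percentage points, Dnmt1 KO minus control) turned to 0.635 with at least 2 *Eomes* transcripts and to 0.0542 with the range set on mapped reads, and ran from −2.16 to 1.36 with 1 library left out (1.36 without Dnmt1 KO replicate 2, 0.87 without control replicate 2). The difference in the non-cycling share of IPCs turned to −0.278 with the rule applied anew after thinning, and ran from 4.96 to 9.38 with 1 library left out. The difference in the neuron list share (−1.79) ran from −6.00 to 2.42, the latter without Dnmt1 KO replicate 2. Of 332 values for 26 named genes under the alternatives, 304 kept direction and side of the threshold, 28 became called, and 0 changed sign. These genes were those of smallest p and list members with an unadjusted p under 0.05, a choice that favours a stable sign, and genes near zero such as *Sstr2*, *Neurog2* and *Dnmt1* were not among them. The precision is limited by 2 libraries per genotype with 287 to 384 non-cycling IPCs each, and intervals cover counting error only.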

Other observations

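Single libraries carried some genes at levels that no other library shared. *Arhgap6*, an X-linked gene (chrX:167578095-168087432, plus strand, GRCm39), reached 227 CPM in the non-cycling IPCs of control replicate 1. The other control library had 3.19 CPM, and the Dnmt1 KO libraries had 4.86 and 10.6 CPM. The newborn neurons showed the same split, with 265 CPM in control replicate 1 and 1.01, 0.912 and 3.26 CPM in the other libraries. The genotype difference of *Arhgap6* in the IPCs was −3.83 on the log2 scale with an edgeR adjusted p of 0.844. *Ror1* reached 46.9 CPM in Dnmt1 KO replicate 2 and no more than 6.71 CPM elsewhere. Both genes were singled out after their values were seen.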
